A study of Mus musculus with 27 samples.

Results

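Complement components and regulators were described in mouse kidneys over 9 ischemia times. The members were 9 genes chosen by symbol, C1qa, C1qb, C1qc, C4b, C3, Cfb, Cfi, Cd55 and Cd59a, out of the 19392 genes with a deposited value, and all of them passed the filter on low values. The kidneys came from 27 C57BL/6 mice, with 3 mice at each ischemia time. In every group the right kidney was removed, the mouse lay on a 37°C platform during surgery, and the left kidney was taken after 24 h of reperfusion. The left renal pedicle was clamped for 16, 18, 20, 22, 24, 26, 28 or 30 min, and the 0 min group was the sham group, which went through the same nephrectomy without a clamp. Unsorted tissue of the left kidney was used. Part of each left kidney was fixed for histology, and the paper does not say which part was used for RNA. The age and sex of the mice are not given in the sources used here. The values are FPKM, which count fragments relative to transcript length and to the mapped reads, so that levels can be compared between genes.

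Complement is a cascade of serum proteases and their substrates that marks cells for removal and lyses membranes. C1q, built from the chains encoded by C1qa, C1qb and C1qc, recognises bound antibody and cell debris and starts the classical pathway, in which C4 is cleaved to form part of the convertase that splits C3. Factor B, from Cfb, supplies the protease of the alternative pathway convertase, factor I, from Cfi, cleaves and inactivates the active fragments of C3 and C4, CD55 speeds the decay of the convertases on the cell surface, and CD59 blocks the assembly of the membrane attack complex. The liver makes most circulating complement, tissue macrophages make C1q, and kidney tubule cells make C3 and factor B locally.

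By position the members fall into 2 clusters and 4 single loci (RefSeq, GRCm38.p6, the build named in the submitters' processing notes). C1qb (chr4:136880126-136886200), C1qc (chr4:136889801-136892936) and C1qa (chr4:136895916-136898844) are neighbours within 18.7 kb. C4b (chr17:34728139-34743902) and Cfb (chr17:34856374-34862514) lie with C2 in the class III part of the major histocompatibility complex, and a gap of 87 bp separates Cfb and C2. C3 (chr17:57203967-57228136) lies elsewhere on that chromosome, Cfi is at chr3:129836727-129875332, Cd55 at chr1:130429798-130465009 and Cd59a at chr2:104095753-104115410. Some members have near-identical copies from which reads could be split between genes. The longest transcripts of C4b and its copy C4a, listed by RefSeq as a transcribed pseudogene, were 96.1% identical over 5367 aligned bases, those of Cd55 and Cd55b 93.6% over 1133 bases, and those of Cd59a and Cd59b 89.9% over 684 bases. The copies were listed lower than the members, with C4a between 0.05 and 0.20 FPKM in the kidneys, so the member values are given as they stand, with this uncertainty.

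Promoter sequence was at hand for 5 of the 9 members. The 250 bases before an annotated start (RefSeq, GRCm38.p6) are shown for the C1q genes that moved together and for C3, whose level varied most between kidneys of the same ischemia time, 5′ to 3′ on the gene's own strand, all of them the minus strand. Capitals mark matches on either strand to the letters searched, which were GAGGAA, a short form of the site of PU.1, a factor of macrophages and other myeloid cells, TTGCGNAA, a form of the site of the C/EBP factors of the acute phase response, TTCNNNGAA, the gamma-activated site, and the interferon-stimulated response element.
C1qb, chr4:136886201-136886450: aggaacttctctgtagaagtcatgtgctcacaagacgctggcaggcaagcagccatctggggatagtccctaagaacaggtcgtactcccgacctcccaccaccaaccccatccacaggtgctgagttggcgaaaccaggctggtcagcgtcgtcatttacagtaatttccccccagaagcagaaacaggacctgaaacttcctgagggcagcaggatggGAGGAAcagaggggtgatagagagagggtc
C1qc, chr4:136892915-136893164: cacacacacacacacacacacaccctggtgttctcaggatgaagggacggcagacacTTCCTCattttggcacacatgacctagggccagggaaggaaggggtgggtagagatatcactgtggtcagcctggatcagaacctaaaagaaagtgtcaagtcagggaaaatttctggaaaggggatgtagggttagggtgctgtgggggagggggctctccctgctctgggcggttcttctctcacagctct
C3, chr17:57228137-57228386: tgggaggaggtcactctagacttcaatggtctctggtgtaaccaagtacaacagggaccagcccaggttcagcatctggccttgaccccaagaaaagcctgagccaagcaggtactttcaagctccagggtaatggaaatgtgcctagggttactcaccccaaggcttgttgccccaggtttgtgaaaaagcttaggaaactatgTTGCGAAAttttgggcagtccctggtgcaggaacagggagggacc
GAGGAA was found at 30 bases before the C1qb start and, on the other strand, at 193 bases before the C1qc start, and 23.3% of 32851 promoters of this length hold it. TTGCGNAA was found at 45 bases before the C3 start, and 0.67% of promoters hold it. Of the other 2 promoters, that of Cd59a held the interferon-stimulated response element (2.98% of promoters) and GAGGAA, and that of Cd55 held no match. TTCNNNGAA (7.02% of promoters) was in none of the 5. No matches overlapped. These are matches of letters and not measured sites.

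The marker genes showed kidney tissue in every group. The proximal tubule phosphate transporter gene Slc34a1 was between 2027.96 and 2377.44 FPKM at 0 min and between 410.57 and 460.13 at 30 min. Of the 3 liver genes listed, Ahsg was at 0.05 FPKM or less in all kidneys. The other liver genes were low but present, with Alb between 1.41 and 5.77 FPKM and Apoa2 between 2.98 and 9.72 FPKM. Several kidneys stood apart from the others of their group. At 0 min, the interferon-responsive factor gene Irf1 was at 8.82 FPKM in kidney 1 and at 76.58 and 63.94 in the others. At 16 min, the tubular injury gene Lcn2 was at 31.43 FPKM in kidney 3 and at 387.90 and 410.34 in the others. At 30 min, Umod, a gene of the thick ascending limb, was at 2033.56 FPKM in kidney 3 and at 462.94 and 454.38 in the others. The fat cell gene Adipoq was at 24.48, 7.03 and 19.34 FPKM in 18 min kidney 1, 20 min kidney 1 and 22 min kidney 3. The proximal tubule list fell in 4 of 7 genes at 28 min and 6 of 7 at 30 min against 0 min. Of all tested genes, 4.21% and 5.59% were called lower in these comparisons. In unsorted tissue, fewer cells of a type and less RNA per cell cannot be told apart.

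Per length of transcript, Cfb was the most abundant member in all 9 groups, with a median of 132.34 FPKM over the 27 kidneys. C3 (median 43.46 FPKM) and Cd59a (33.90 FPKM) followed and changed places between ischemia times, and their ranges overlapped in 7 of the 9 groups. The C1q chains came next, at medians of 18.56 FPKM for C1qb, 15.28 for C1qa and 12.67 for C1qc. Cfi (9.72 FPKM) and Cd55 (5.19 FPKM) were low, and C4b, with 3.20 FPKM, was lowest in each clamped group but above Cfi and Cd55 at 0 min. The highest kidney was 64.6 times the lowest for C4b, 8.99 times for C3, 8.68 times for Cfi, and 1.5 times for Cd59a.

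**Figure D1:**
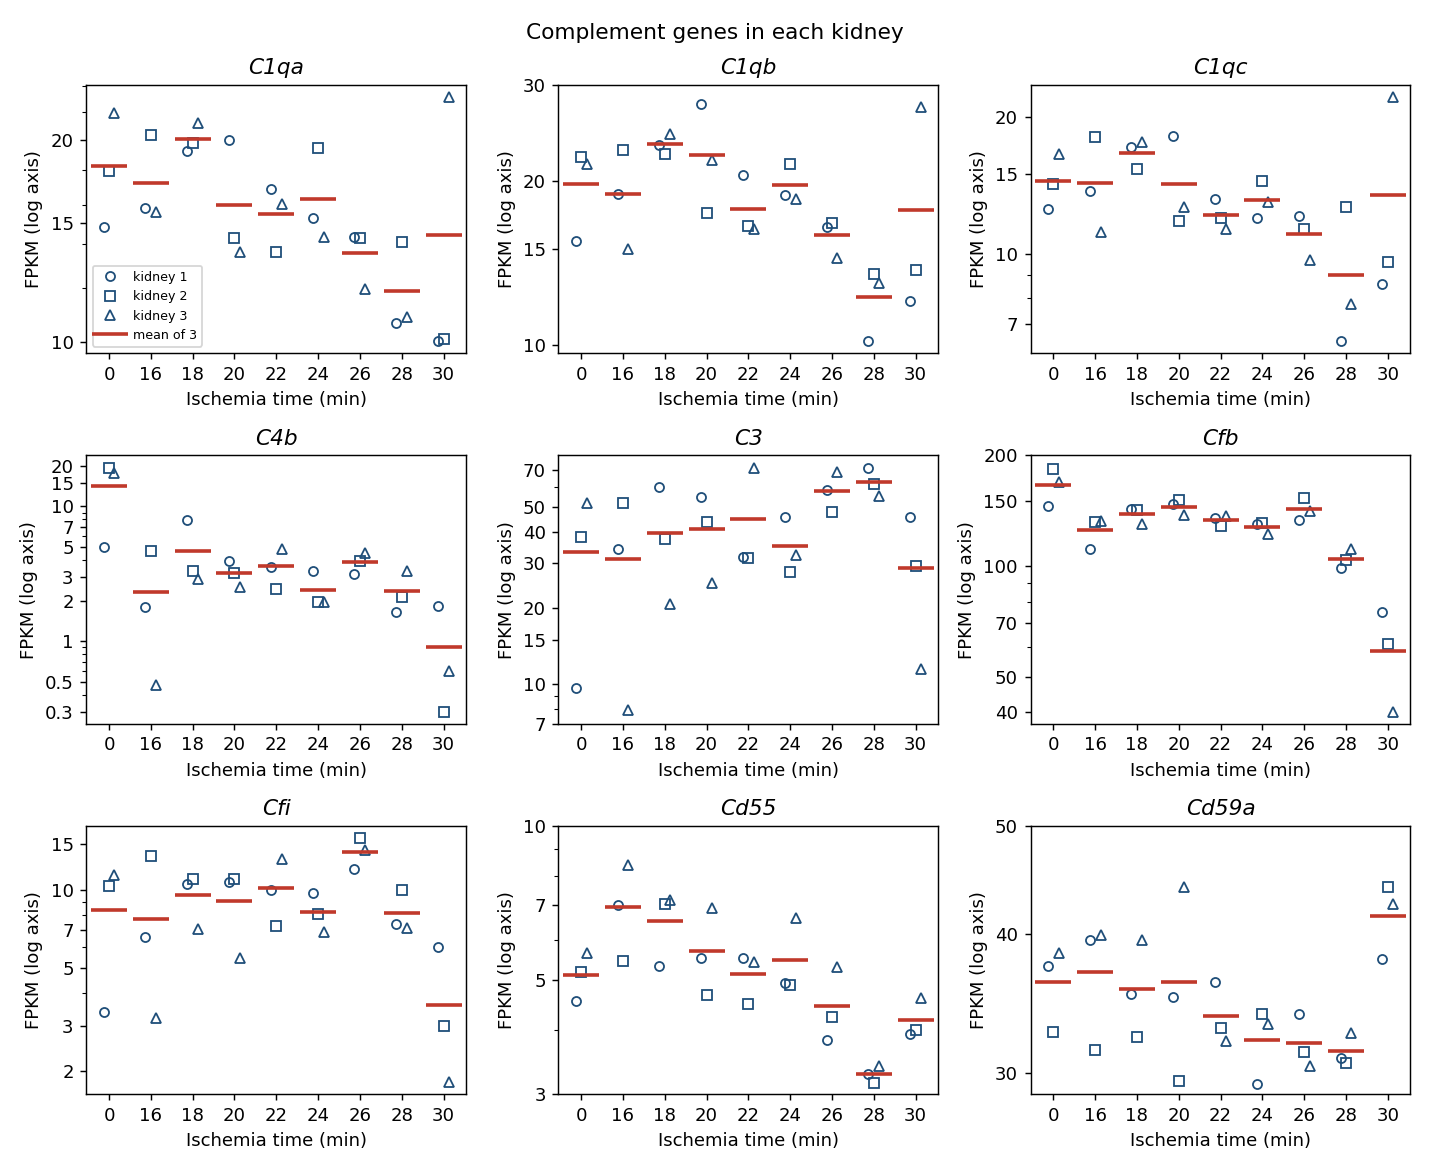
FPKM (log axis) of the 9 complement genes in each of the 27 kidneys against ischemia time in min, with 1 symbol per kidney number and a bar at the mean of 3 kidneys. C4b dropped from a mean of 14.1 FPKM at 0 min to between 0.91 and 4.69 FPKM at the clamped times, and Cfb dropped to 58.7 FPKM at 30 min.

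In the comparisons with 0 min, a call needed both a limma adjusted p-value under 0.05, adjusted over all 18188 tested genes, and a log2 fold change beyond 1 in either direction. C4b was the only member called at 16, 18, 20, 22, 24, 26 and 28 min, each time lower, which is 1 of 9. By the same rule 2.25%, 3.06%, 2.51%, 3.29%, 3.12%, 3.77% and 8.48% of all genes were called at those times. At 30 min 3 members were called, C4b, Cfb and Cfi, all lower, against 10.7% of all genes, and the same 3 had an adjusted p-value under 0.05, against 52.3% of genes. From 16 to 30 min the median log2 fold change over the 9 members was -0.15, 0.11, -0.09, -0.22, -0.24, -0.31, -0.65 and -0.36. Over all tested genes it was between -0.0112 and 0.000772 at these times. All 8 comparisons use the same 3 sham kidneys, so they are not separate pieces of evidence. Groups of 3 kidneys often do not overlap in these data. Against 0 min this held for 28.1%, 42.1%, 38.1%, 44.3%, 42.2%, 41.9%, 56.9% and 54.5% of tested genes, in the order of the ischemia times from 16 to 30 min.

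**Figure D2:**
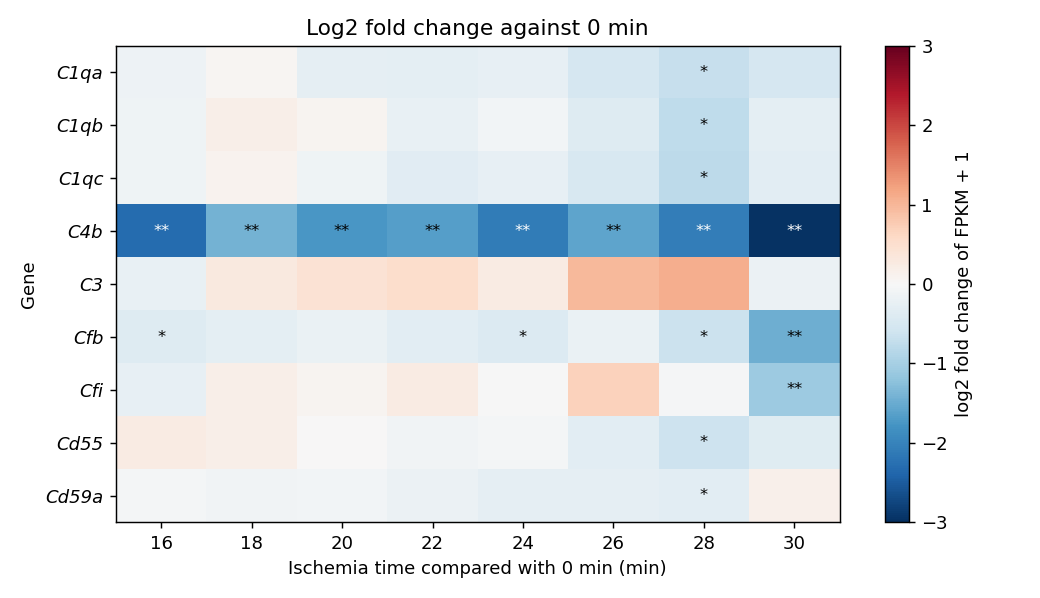
Log2 fold change of FPKM + 1 against 0 min for the 9 complement genes (rows) at the 8 clamped times (columns, min), where ** marks a call by fold change and adjusted p-value and * an adjusted p-value under 0.05 with a fold change below the threshold. C4b is marked ** at all 8 times, from -1.43 at 18 min to -2.96 at 30 min, and Cfb and Cfi are marked ** at 30 min.

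C4b, the shared component of the classical and lectin pathways, was lower at every clamped time. Its level at 0 min was 4.98 FPKM in kidney 1, 19.39 in kidney 2 and 17.80 in kidney 3. At 16 min it was 1.79, 4.64 and 0.47 FPKM, and at 18 min 7.87, 3.33 and 2.88 FPKM. The 18 min group was the only clamped group to overlap the sham group, since its kidney 1 lay above the lowest sham kidney. The 20 min kidneys held 3.93, 3.20 and 2.51 FPKM, the 22 min kidneys 3.56, 2.44 and 4.82, and the 24 min kidneys 3.31, 1.94 and 1.94. The 26 min kidneys held 3.14, 3.92 and 4.47 FPKM, the 28 min kidneys 1.65, 2.12 and 3.33, and the 30 min kidneys 1.83, 0.30 and 0.60. From 20 to 28 min the level thus stayed within 1.65 and 4.82 FPKM, and the lowest sham kidney lay only just above the top of that range.

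On the mean, C4b was 6.11-fold lower at 16 min than at 0 min, 3.66-fold lower at 26 min and 15.4-fold lower at 30 min. The log2 fold change of FPKM + 1, which understates the change of a gene this low, was -2.31 ± 0.45 (SE) at 16 min (adjusted p = 0.00156), -1.43 at 18 min (0.0233) and -1.58 at 26 min (0.0120). For the longest clamps it was -2.08 (28 min, 0.000716) and -2.96 (30 min, 1.4e-05). Without sham kidney 1, which stood apart from the other sham kidneys, it was -2.86 at 16 min and -3.52 at 30 min. The calls at 16, 24, 28 and 30 min kept their side of the threshold whichever kidney was left out, with adjusted p-values no higher than 0.0157. Leaving out sham kidney 2 ended the calls at 18, 20, 22 and 26 min (adjusted p = 0.124, 0.0577, 0.0620 and 0.0738). Leaving out sham kidney 3 ended those at 18 and 26 min (0.0958 and 0.0571), and at 18 min leaving out the clamped kidney 2 or 3 did so too (0.0776 and 0.0961). Fitted on the 6 kidneys of the comparison alone, C4b passed at 24, 28 and 30 min but had an adjusted p = 0.158 at 16 min. Among the clamped kidneys there was no call on ischemia time, with a slope of -0.046 ± 0.026 log2 units per min over 16 to 30 min (adjusted p = 0.17), but without 16 min kidney 3 it was -0.071 (adjusted p = 0.0158).

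Sham kidney 1, with the lowest C4b of its group, was also the kidney with the lowest sum over the list of interferon-gamma response genes, 41.87 FPKM against 504.7 and 314.5. This list fell in 6 of 7 genes in each comparison with 0 min, where from 0.962% to 5.59% of all tested genes were called lower. The fall rested on sham kidneys 2 and 3. The sum in sham kidney 1 lay within the range of the clamped kidneys, from 18.03 (16 min) to 49.31 FPKM (18 min). The part of this list in the C4b result was not tested. Over the 27 kidneys the genes with the level most like that of C4b were Ubd (Pearson r = 0.91), a ubiquitin-like modifier gene, and H2-DMa (0.91) and H2-Ab1 (0.88), both of antigen presentation on MHC class II. H2-DMa was at 10.94, 37.43 and 34.91 FPKM in the sham kidneys and at 1.57 FPKM in 16 min kidney 3, the kidney with 0.47 FPKM of C4b. These genes share the group differences, and the r of C4b with H2-DMa within the ischemia times, on deviations from the group means, was 0.84.

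The C1q chains, which start the classical pathway, had their lowest means at 28 min. From 16 to 24 min their kidneys overlapped the sham kidneys, except for C1qb at 18 min, where all kidneys lay above (22.40 to 24.36 FPKM). At 26 min C1qa and C1qc lay below all sham kidneys. The sham kidneys held 14.84, 17.98 and 21.92 FPKM of C1qa, ranked from low to high, 15.55, 21.47 and 22.16 of C1qb, and 12.54, 14.22 and 16.59 of C1qc. The 28 min kidneys held 10.65, 10.89 and 14.09 FPKM of C1qa, 10.16, 13 and 13.53 of C1qb, and 6.43, 7.77 and 12.71 of C1qc. For C1qa and C1qb every 28 min kidney lay below every sham kidney, and for C1qc the highest 28 min kidney overlapped the lowest sham kidney. The sum of the chains was 52.4 ± 8.69 FPKM (SD, n = 3) at 0 min and 33.1 ± 6.66 at 28 min, with no overlap (exact permutation test, two-sided, p = 0.1, the smallest that 3 kidneys against 3 allow).

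At 28 min against 0 min, C1qa fell by 0.70, C1qb by 0.77 and C1qc by 0.80 on the log2 scale (limma adjusted p = 0.0132, 0.00635 and 0.0131), short of the fold threshold. They belong to the 7 members with an adjusted p-value under 0.05 in that comparison, against 48.2% of all genes, with C4b, Cfb, Cd55 and Cd59a. The C1q chains moved together across kidneys (r from 0.90 to 0.94), so these 7 are not independent results. C1qc passed the fold threshold when 28 min kidney 2 was left out (-1.03). Leaving out sham kidney 3 raised the adjusted p of C1qa to 0.0648 and leaving out 28 min kidney 1 raised that of C1qc to 0.0787.

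At 30 min the C1q level rested on kidney 3. C1qa was at 10.02, 10.09 and 23.13 FPKM in kidneys 1, 2 and 3, C1qb at 12.07, 13.71 and 27.38, and C1qc at 8.60, 9.61 and 22.12. Kidney 3 was above every sham kidney for all chains and the other two were below every sham kidney. With all 3 kidneys the log2 fold changes against 0 min were -0.49, -0.30 and -0.31 and none had an adjusted p-value under 0.05 (limma, 0.0705, 0.276 and 0.338), and without kidney 3 they were -0.87, -0.65 and -0.70 (adjusted p = 0.000226, 0.00428 and 0.00748). Kidney 3 was the one with Umod at 2033.56 FPKM, and the macrophage gene Tyrobp was at 23.33 FPKM there and at 13.54 and 10.07 in the others, whereas Csf1r, the receptor that maintains macrophages, was at 7.0, 6.59 and 6.47 FPKM. Whether these differences had a part in the C1q values was not tested.

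Among clamped kidneys the C1q chains fell with ischemia time. The slope over 16 to 30 min was -0.041 ± 0.012 log2 units per min for C1qa, -0.042 ± 0.014 for C1qb and -0.040 ± 0.015 for C1qc (adjusted p = 0.00748, 0.0143 and 0.0293). With Cfb and Cd55 these are the 5 members called on this slope, all lower, while 43.3% of all tested genes were called on it. The chains moved together across kidneys, so these 5 are not independent results. Without 30 min kidney 3 the slopes were -0.055, -0.057 and -0.057. The call of C1qc was lost when 16 min kidney 2, 18 min kidney 3, 28 min kidney 1 or 3, or 30 min kidney 1 or 2 was left out, with adjusted p-values up to 0.0689. Over 16 to 26 min alone limma called no member, and 0.011% of all genes were, although C1qa, C1qb, C1qc, Cd55 and Cd59a had unadjusted p-values under 0.05, each with a negative slope. Over all 18188 genes, 1602 had an unadjusted p-value under 0.05 on this slope, in either direction.

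Of the chain sum, C1qb made up a median of 39.0%, C1qa 33.2% and C1qc 27.6%, and across 27 kidneys the share of C1qb moved only from 33.5% to 45.4%. The kidneys with high C1qa were those with high C1qb and C1qc (r from 0.90 to 0.94 over 27 kidneys, 0.90 to 0.92 on deviations within ischemia times). The next most similar genes were Gpr65, a proton-sensing receptor gene of leukocytes, for C1qa and C1qc (r = 0.83 and 0.76) and Selenom for C1qb (0.78). Gpr65 was low, between 0.29 and 0.98 FPKM. The macrophage and monocyte list did not move as a block. At 28 min against 0 min Cd68 and Lyz2 rose by 2.37 and 1.32 and Csf1r and Cd74 fell by 1.46 and 4.25 on the log2 scale, with the other 9 genes not called and a list median of -0.16. Without Cd74, which is also an antigen presentation gene, the list summed to between 53.1 and 64.9 FPKM at 0 min and between 85.6 and 96.7 FPKM at 28 min, while C1q was lower at 28 min.

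C3, the substrate of all pathways, differed more between kidneys of a group than between groups. The sham kidneys held 9.67, 38.15 and 52.00 FPKM, the 16 min kidneys 34.27, 51.59 and 7.95, and the 30 min kidneys 45.60, 29.35 and 11.48. The 26 min kidneys held 58.09, 47.65 and 68.33 FPKM and the 28 min kidneys 71.46, 61.70 and 55.30. The 28 min group was the only one that lay wholly above the sham group, and it was also the group with the smallest spread, a SD of 0.18 on the log2 scale against 1.34 at 16 min. On the log2 scale C3 was 1.08 higher at 28 min than at 0 min, with a 95% interval from -0.21 to 2.38 (adjusted p = 0.16), and without sham kidney 1 it was 0.40 higher. It was 1.27 lower at 30 min than at 28 min, with an interval from -2.56 to 0.02 (adjusted p = 0.20). Neither passed the test, and the intervals hold differences of over 4-fold as well as no difference.

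The largest C3 value of the 18 min and 20 min groups, 59.99 and 54.54 FPKM in kidney 1 of each, and of the 22 min group, 71.20 FPKM in kidney 3, came from the 3 kidneys in which the fat cell gene Adipoq stood out, and fat cells also make C3. In the same kidneys Cfd, which encodes adipsin (factor D), the activating protease of the alternative pathway that fat cells secrete, was at 158.84, 44.02 and 115.33 FPKM, against 1.69 FPKM or less in each of the sham kidneys. The 26 and 28 min kidneys, with the highest C3 means, had summed fat cell genes of 0.27 to 0.90 FPKM. Over 27 kidneys the r of C3 with Adipoq was 0.31 (Spearman 0.11), and on deviations within ischemia times it was 0.46. The part of fat tissue in the C3 values was not tested.

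Cfb, the gene of factor B, fell in RNA level at the longest ischemia times. It was at 145.36, 184.09 and 168.95 FPKM in the sham kidneys and between 111.24 and 153.15 FPKM in the 18 kidneys clamped for 16 to 26 min. It then fell to 98.57, 103.88 and 111.15 FPKM at 28 min and to 74.86, 61.24 and 40.13 FPKM at 30 min. From 26 to 28 to 30 min the groups did not overlap. This held for 36.5% of tested genes from 26 to 28 min and for 28.3% from 28 to 30 min. Cfb was 2.83-fold lower at 30 min than at 0 min on the mean, with a log2 fold change of -1.48 ± 0.14 (adjusted p = 2.15e-08) that was between -1.67 and -1.25 whichever kidney was left out.

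Between neighbouring times, Cfb fell by 0.45 on the log2 scale from 26 to 28 min (adjusted p = 0.0259, up to 0.112 when a kidney was left out) and by 0.82 from 28 to 30 min (adjusted p = 0.000914). By limma no member was called in these comparisons, in which 1.5% and 1.05% of all genes were called, and 2 and 4 of the 9 members had unadjusted p-values under 0.05, as did 5635 and 4872 of the 18188 tested genes. Without the fold threshold 1 member, Cfb, had an adjusted p-value under 0.05 from 26 to 28 min (19.3% of genes) and 2 members, Cfb and Cd59a, from 28 to 30 min (13.2% of genes). Leaving out 30 min kidney 1 took Cfb past the fold threshold from 28 to 30 min (-1.02, adjusted p = 2.18e-05). By limma no member was called from 16 to 26 min, nor was any gene (0%), and Cfi and Cd55 had unadjusted p-values under 0.05, as did 1717 of 18188 genes. Against 0 min Cfb was already 0.39 lower at 16 min (adjusted p = 0.0479) and 0.40 lower at 24 min (0.0305), short of the fold threshold, and the adjusted p-value rose above 0.05 in 4 of 6 and 5 of 6 omissions of a kidney. Its slope over 16 to 26 min was 0.0070 ± 0.0077 log2 units per min.

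The genes most like Cfb over 27 kidneys were Cubn, which encodes the endocytic receptor cubilin of the proximal tubule (r = 0.97), the sugar transporter gene Slc5a9 (0.97) and Pgap6 (0.96). Cubn was between 51.48 and 61.37 FPKM at 0 min, between 22.48 and 27.72 at 28 min and at 11.83, 9.24 and 5.20 at 30 min, in the same order of kidneys as Cfb at 30 min. On deviations within ischemia times the r of Cfb and Cubn was 0.81. C2, which encodes the protease of the classical convertase and adjoins Cfb, was at 21.55, 34.54 and 32.42 FPKM in the sham kidneys, fell by 1.11 on the log2 scale at 16 min (adjusted p = 0.00128) and by 1.25 at 30 min (4.58e-05), and was between 18.41 and 21.03 FPKM at 28 min.

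Cfi, the gene of the protease that inactivates C3b and C4b, was highest at 26 min and lowest at 30 min. The sham kidneys held 3.38, 10.30 and 11.43 FPKM, the 26 min kidneys 11.99, 15.79 and 14.18, the 28 min kidneys 7.37, 9.98 and 7.11, and the 30 min kidneys 6.03, 3.0 and 1.82. All 26 min kidneys lay above all sham kidneys, with a log2 fold change of 0.68 and a 95% interval from -0.17 to 1.53 that did not pass (adjusted p = 0.23), and without sham kidney 1 the value was 0.21. At 30 min Cfi was called lower (-1.09 ± 0.41, adjusted p = 0.0301), although the 30 min kidney 1 overlapped the sham kidneys. Without sham kidney 1 it was -1.56 (adjusted p = 0.00304). The call ended when sham kidney 2 or 3 or 30 min kidney 2 or 3 was left out, with log2 fold changes from -1.06 to -0.77 and adjusted p-values from 0.068 to 0.156, and when quantile normalization was omitted (-0.99). From 28 to 30 min the change was -1.05 (adjusted p = 0.0953), and without 30 min kidney 1 it was -1.40 (adjusted p = 0.0304).

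Cfi and C3 moved together from kidney to kidney. In 7 of the 9 groups the same kidney was lowest for both, and in 5 of those groups it was lowest for C4b as well. Over 27 kidneys the r of C3 and Cfi was 0.78 (Spearman 0.68), it was 0.73 without the 2 kidneys farthest from the median of C3, and it was 0.90 on deviations within ischemia times. Within ischemia times C4b had an r of 0.84 with each of them. The genes were measured in the same libraries and share the normalization and the group differences, and these values are descriptions. The gene most like Cfi was Slc13a1, a sulfate transporter gene of the proximal tubule (r = 0.93), which was highest at 26 min too, between 423.32 and 463.26 FPKM, and at 56.00 FPKM in 30 min kidney 3. For C3 the most similar genes were Cep85 and Fgf18 (0.83 and 0.81), ahead of Cfi.

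**Figure D3:**
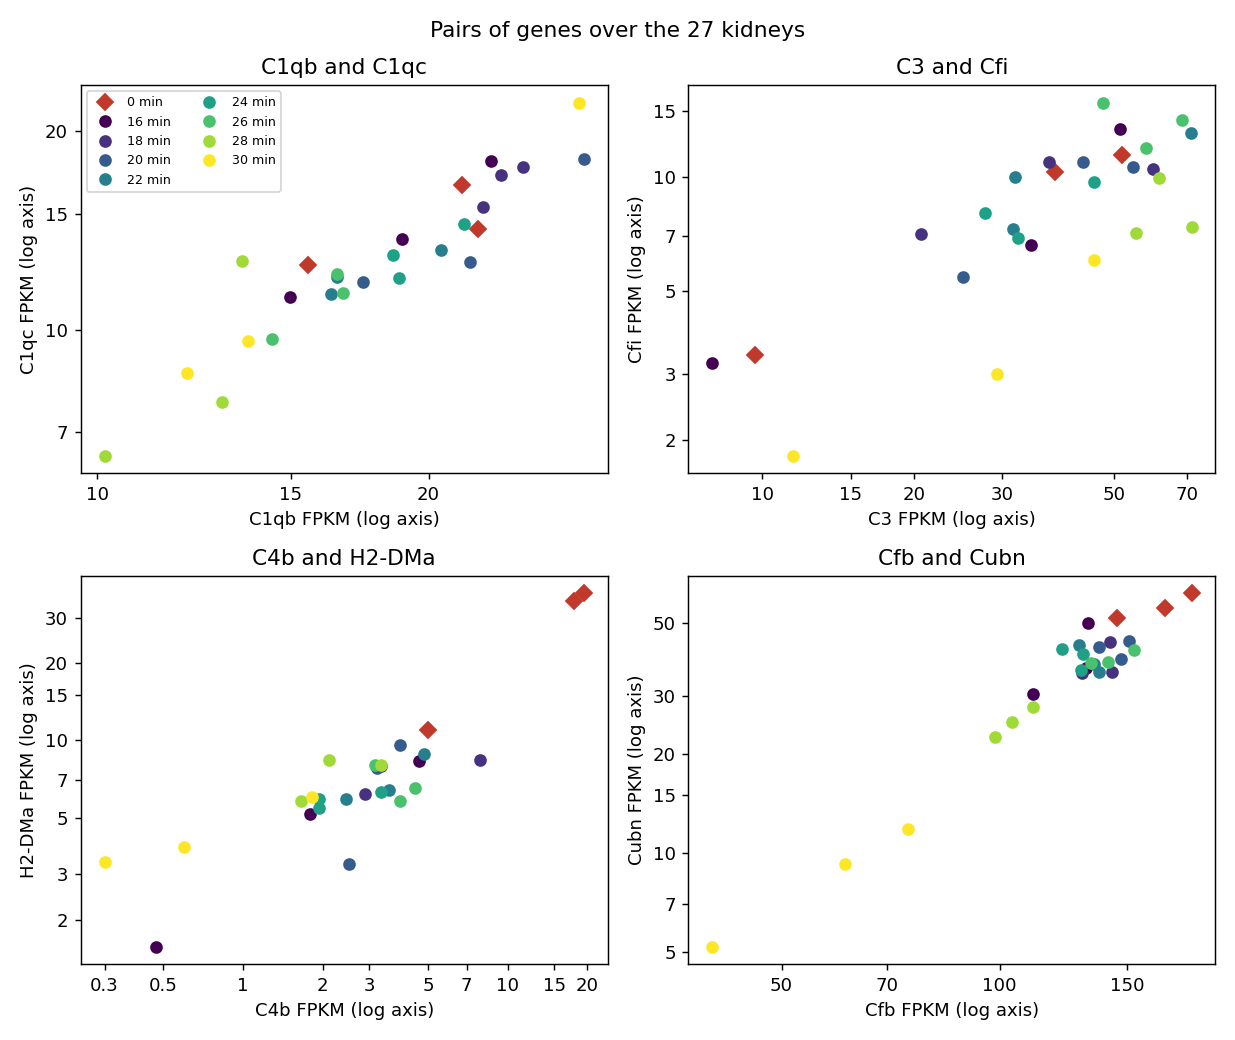
FPKM of pairs of genes in the 27 kidneys (log axes), coloured by ischemia time, with sham kidneys as red diamonds. C1qb and C1qc lie along a line, C3 and Cfi are low together in sham kidney 1, 16 min kidney 3 and 30 min kidney 3, and sham kidney 1 lies apart from the other two sham kidneys for C4b and H2-DMa.

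Of the regulators anchored in the cell membrane, Cd55 fell with ischemia time. The sham kidneys held 4.56, 5.19 and 5.65 FPKM, ranked from low to high, the 16 min kidneys 5.45, 7.01 and 8.38, the 26 min kidneys 3.82, 4.25 and 5.30, the 28 min kidneys 3.15, 3.29 and 3.41, and the 30 min kidneys 3.93, 4.01 and 4.62. The 28 min kidneys lay below all others in these groups. The slope over 16 to 30 min was -0.054 ± 0.0089 log2 units per min (adjusted p = 8.02e-05), with adjusted p-values up to 0.000296 when any kidney was left out. Over 16 to 26 min it was -0.051 (unadjusted p = 0.00159, adjusted p = 0.27). At 28 min Cd55 was 0.63 lower than at 0 min on the log2 scale (adjusted p = 0.00181), with a 95% interval from -0.95 to -0.31, and at 30 min 0.36 lower (adjusted p = 0.0552). At 16 min its mean was above the sham mean, 6.95 ± 1.47 against 5.13 ± 0.55 FPKM (SD, n = 3), a difference that did not pass. The genes most like Cd55 were Kyat1, Ubr2 and Myo5a (r = 0.83 for each).

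Cd59a moved least of the members. It was between 29.31 and 44.09 FPKM in all kidneys, at 32.69, 37.47 and 38.47 in the sham kidneys, ranked from low to high, at 30.66, 30.92 and 32.62 at 28 min, and at 37.94, 42.52 and 44.06 at 30 min. Cd59a rose by 0.47 on the log2 scale from 28 to 30 min (limma adjusted p = 0.0127, up to 0.0671 when a kidney was left out). These groups did not overlap, which held for 28.3% of tested genes. Among the members Cd59a was the only one to rise in that comparison with an adjusted p-value under 0.05. Against 0 min it was 0.32 lower at 28 min (adjusted p = 0.0320), a difference that shrank to 0.20 without quantile normalization (adjusted p = 0.17) and that missed the threshold in 4 of 6 omissions of a kidney, and 0.15 higher at 30 min with an interval from -0.09 to 0.40. Its level ran against that of Cfi and C3 (r = -0.73 and -0.67 over 27 kidneys). The most similar gene was Gsn, of the actin-severing protein gelsolin (r = 0.85), followed by Abhd6 and Sytl1.

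The other complement genes, 45 by list, were counted by role against 0 min. A median of at least 1 FPKM held for 6 of 13 initiation genes and 3 of 7 terminal pathway genes. It held for 7 of 14 regulators and 5 of 9 receptors. A gene near 0 FPKM at 0 min cannot fall by 1 on the scale of log2(FPKM + 1). The counts and list medians therefore say little about the genes that were hardly detected. Of 12 tested initiation genes, 1 fell at 16 min (C2), 0 at 28 min and 3 at 30 min, C1ra, C2 and Masp2, with C1ra, a protease of the C1 complex that C1q carries, falling by 1.08 on the log2 scale. Of 6 tested genes of the terminal pathway, which builds the membrane attack complex, 1 fell at 16 min and 3 at 28 and at 30 min. C8a was at 8.25 to 11.27 FPKM at 0 min, 1.13 to 4.48 at 16 min and 0.12 to 0.14 at 28 min, and C8g and C7 fell by 1.5 and 1.24 on the log2 scale at 28 min. The list medians in the same comparisons were -0.13, -0.07 and -0.32 for initiation and -0.12, -0.69 and -0.72 for the terminal pathway, beside a median of 0.00 over all genes.

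Of 13 tested regulators beside the members, 1 rose at 16 min, Clu, and at 28 min Clu and Cpn1 rose and Serping1 fell. At 30 min Clu rose and Serping1 fell. Clu encodes clusterin, which binds the terminal complex, and rose from between 162.45 and 219.92 FPKM at 0 min to between 1309.42 and 1695.66 at 28 min (log2 fold change 3.07). Serping1, which encodes the C1 inhibitor that holds the C1q-bound proteases in check, was at 34.38 to 46.18 FPKM at 0 min and 8.86 to 14.12 FPKM at 28 min. At 30 min it was at 8.45, 7.97 and 30.33 FPKM, with kidney 3 high as for C1q. The regulator medians were 0.00 after 16 min, -0.07 after 28 min and -0.06 after 30 min. Of 9 receptor genes, 1 rose at 16 and at 28 min, C5ar1, of the receptor of the C5a fragment, and 3 rose at 30 min, C5ar1, Itgam and Cd93, with medians of 0.10, 0.23 and 0.54. Neither of the 2 other alternative pathway genes, Cfd and Cfp, was called. The shares of all tested genes called were 2.25% at 16 min, 8.48% at 28 min and 10.7% at 30 min.

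**Figure D4:**
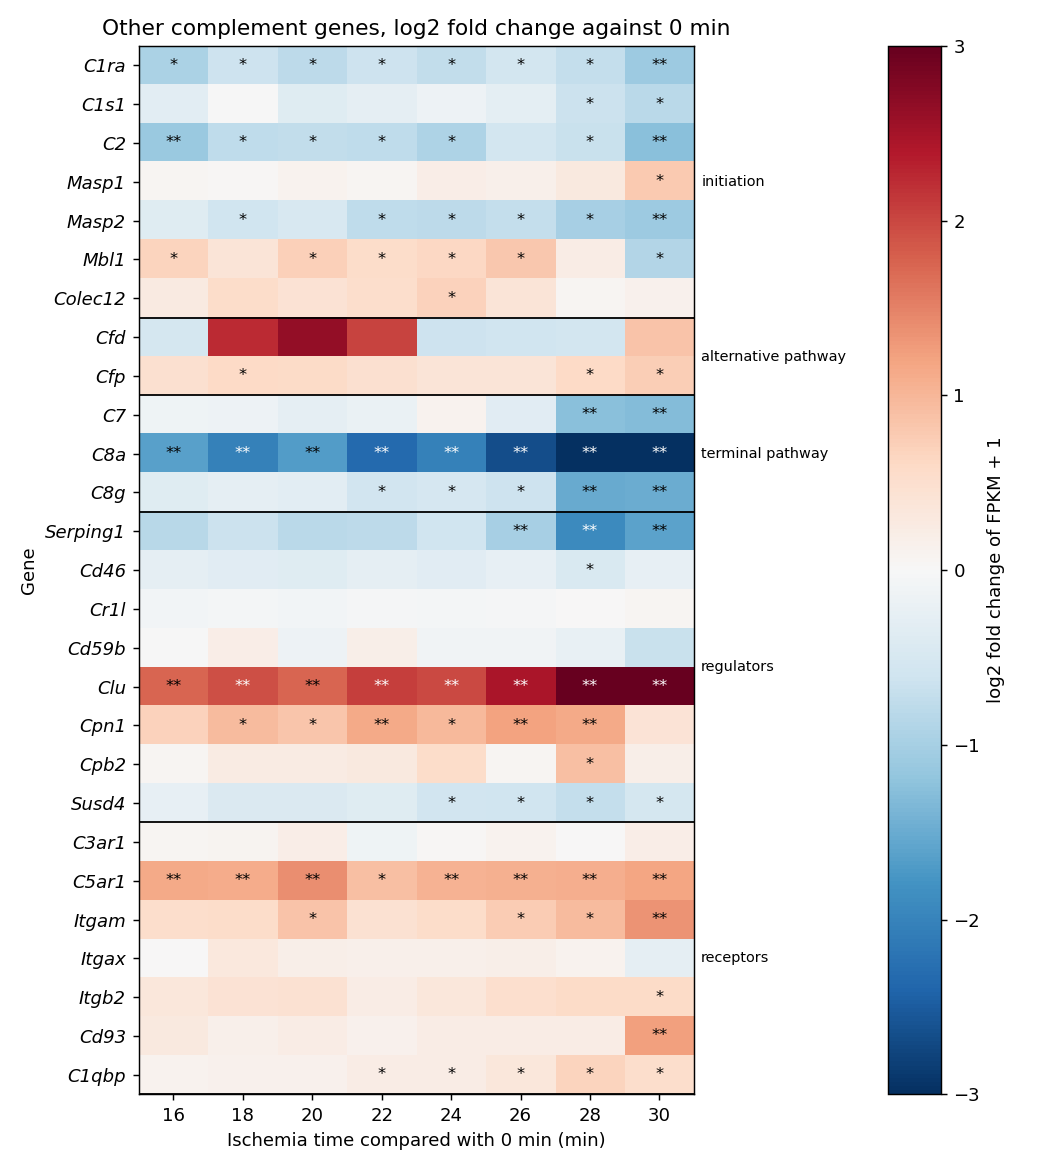
Log2 fold change of FPKM + 1 against 0 min (columns, ischemia time in min) for the 27 other complement genes that reached 1 FPKM in at least 1 kidney (rows, by role), with ** and * for calls by fold change and adjusted p-value and by adjusted p-value alone. C8a fell and Clu rose at every time, and Cfd is high at 18, 20 and 22 min without passing the test.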

How the data were processed

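Total RNA of 27 left kidneys was sequenced on the DNBSEQ platform, and the authors deposited a table of FPKM values per gene. The submitters' processing notes name Bowtie2, RSEM, DESeq2 and the build GRCm38.p6, and versions are not given in the sources used here. The deposited FPKM values are rounded to 2 decimals and hold no read counts, so the depth behind each value is unknown. They sum to between 512453 and 554036 per kidney, with 16498 to 16904 genes above 0.

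Groups followed the labelled ischemia times, with 3 mice at each. The FPKM values were converted to log2(FPKM + 1) and quantile normalized, and the 18188 of 19392 genes above 0 in at least 3 kidneys were fitted over all 9 groups with limma 3.58.1 in R 4.3.3. P-values were adjusted by Benjamini-Hochberg over all tested genes. Ischemia time was also fitted as a slope over the clamped kidneys, where an adjusted p-value under 0.05 made a call. Fold changes on this scale understate the change of low genes. Likeness was Pearson's r on normalized values over 27 kidneys, and the 3 genes with the highest r were named. Sums of FPKM were compared by exact permutation tests. Python 3.11.15 with scipy 1.17.1, matplotlib 3.10.9 and Biopython 1.88 was used for the other steps. The fits were tested on simulated data. Alternatives were another pseudocount, scaling or filter, limma with an intensity trend, a replicate block, the 2 groups of a comparison alone, no fold threshold, and leaving out each kidney. The members and gene lists were chosen with earlier results of these data known, and the fat cell list after the Cfd values were seen. A few genes were left out of these lists and are not reported here.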

Additional observations from a re-analysis of the deposited data

How the results depend on the processing

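Of the counts of members called in the 13 comparisons and slopes, 201 values under alternatives were within 1.5 times the reported count and 21 were not, and no direction was reversed. With the 2 groups alone, 0 members were called at 16, 18, 20, 22 and 26 min against 0 min, where 1 was reported, and the same 0 was found at 18 min with a pseudocount of 0.1 FPKM. With no fold threshold the counts were 2 at 16 and 24 min, 7 at 28 min, 1 from 26 to 28 min and 2 from 28 to 30 min. When each kidney was left out in turn, the count ranged from 0 to 1 at 18, 20, 22 and 26 min, from 1 to 2 at 28 min and from 0 to 2 between 28 and 30 min. The cause of these changes was not tested, beyond the fewer kidneys in the fits. At 28 min against 0 min, 5 to 7 members had an adjusted p-value under 0.05 without 1 kidney and 6 to 7 under the other alternatives. On the slope over 16 to 30 min, 5 members were called without the 16 min and 30 min kidneys numbered 3, an alternative chosen after seeing the data, as in all kidneys. With the replicate number as a block, the count was the same in 13 of 13 comparisons. Kidneys with the same number did not deviate together (mean r = 0.009 over 108 pairs, against -0.005 over 216 pairs of other numbers). The labels do not say what the numbers stand for, and these values cannot decide whether they pair the mice.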
